A study of Mus musculus with 20 samples.

Results

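The comparison described here is the difference between the effect of losing Spdef in adult small intestine and its effect in fetal small intestine. Spdef encodes an ETS-domain transcription factor, and the knockout (KO) mice lack it. The members are 10 arrays of the 20 in the series, that is 5 of 10 pairs of RNA pools, which count as 4 of 9 replicates. Adult pools came from mice at postnatal day 30 and fetal pools from embryos of stage E18.5. Each array carried a Spdef KO pool in one colour and a wild type pool of the same stage in the other, and each pair of pools was hybridised in both dye orders. A pool was total RNA of the whole organ from 2 to 3 littermates, so each value averages animals and includes muscle, stroma and immune cells beside the epithelium. No promoter-driven transgene or other agent is named for either genotype, and the strain and the deleted part of the gene are not given in the sources used here.

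Adult small intestine is represented by pairs 1 and 2. The fetal side holds the pools whose wild type RNA had a small-intestine profile. These are the pairs labelled fetal small intestine 1 and 2 and the pair labelled fetal colon 1. They were chosen by the wild type levels of regional genes, and those levels are given only as a description. On the scale of log2 intensity, lactase (Lct), a brush-border enzyme of the small intestine, stood at 16.03 in fetal small intestine 1 and 2 and at 16.37 in the pair labelled fetal colon 1. It stood at 8.76 in the pair labelled fetal small intestine 3 and at 9.09 in fetal colon 2. Hoxb13, a homeobox gene of the hindgut, ran the other way, at 7.05 and 7.0 in the pools kept and at 11.61 and 11.21 in the pools left out. The labels of 2 fetal pairs therefore ran against their regional genes, and each fetal value is given separately for the 2 replicates, so that the value in fetal small intestine 1 and 2 is the fetal effect without the pair labelled fetal colon 1. Fetal small intestine 1 and 2 differed by less than the spread between their dye-swapped arrays would give, and were counted as 1 replicate. The median squared difference of their log2 ratios was 0.159 times the median variance given by the dye swaps. That variance was the one of a pair's mean, estimated from its dye-swapped arrays and summed over the 2 pairs. It includes any dye bias of a gene, which cancels in the mean of a pair. Their ratios correlated across genes at 0.919. For adult pairs 1 and 2 the variance ratio was 0.985 and the correlation 0.167. Nothing in the labels says that the pools came from separate litters, so the p-values measure the spread between these pools.

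Spdef acts in the secretory lineage of the gut epithelium, downstream of the factor Atoh1. Goblet cells secrete the mucin gel and its packing proteins and are present in the mouse gut before birth. Paneth cells sit at the crypt base, secrete lysozyme and alpha-defensins, and mature after birth as the crypts form. A stage comparison can therefore set a programme that is running at both stages beside one whose wild type expression climbs after birth.

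The promoters of 6 genes are printed as examples of genes whose adult and fetal ratios did not overlap, although none passed the test of the difference: Agr2, Muc2 and Ccl6 had the lower ratios in fetal pools, and Lyz1, Defa20 and Defa22 in adult pools. Each line is the 250 bases before the annotated start in RefSeq, build GRCm38.p6, 5′ to 3′ on the strand of the gene. Capitals mark GGAT, the core that Spdef is known to prefer, or its reverse complement ATCC, with the search run on both strands.
Agr2: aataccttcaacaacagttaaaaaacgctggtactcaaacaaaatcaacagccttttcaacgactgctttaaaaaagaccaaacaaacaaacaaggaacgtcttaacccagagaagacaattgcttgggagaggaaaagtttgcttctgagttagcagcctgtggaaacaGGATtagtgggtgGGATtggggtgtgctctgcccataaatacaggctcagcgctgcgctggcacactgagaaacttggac
Muc2: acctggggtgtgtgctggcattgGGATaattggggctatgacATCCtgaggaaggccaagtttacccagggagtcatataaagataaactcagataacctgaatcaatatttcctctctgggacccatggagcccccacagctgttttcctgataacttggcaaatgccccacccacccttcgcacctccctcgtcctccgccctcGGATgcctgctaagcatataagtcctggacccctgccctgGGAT
Ccl6: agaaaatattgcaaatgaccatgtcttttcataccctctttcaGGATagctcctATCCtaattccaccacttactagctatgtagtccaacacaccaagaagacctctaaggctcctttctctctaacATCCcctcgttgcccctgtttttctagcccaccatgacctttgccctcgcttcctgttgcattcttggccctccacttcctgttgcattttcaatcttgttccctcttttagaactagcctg
Lyz1: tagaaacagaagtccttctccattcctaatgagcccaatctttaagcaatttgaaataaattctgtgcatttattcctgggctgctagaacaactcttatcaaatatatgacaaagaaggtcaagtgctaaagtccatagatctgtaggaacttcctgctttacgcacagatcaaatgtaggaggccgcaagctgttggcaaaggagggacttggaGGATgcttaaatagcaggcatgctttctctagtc
Defa20: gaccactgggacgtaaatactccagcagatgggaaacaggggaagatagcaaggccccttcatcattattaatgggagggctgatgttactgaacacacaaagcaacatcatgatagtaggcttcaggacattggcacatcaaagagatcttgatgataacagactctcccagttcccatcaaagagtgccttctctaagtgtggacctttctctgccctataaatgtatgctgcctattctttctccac
Defa22: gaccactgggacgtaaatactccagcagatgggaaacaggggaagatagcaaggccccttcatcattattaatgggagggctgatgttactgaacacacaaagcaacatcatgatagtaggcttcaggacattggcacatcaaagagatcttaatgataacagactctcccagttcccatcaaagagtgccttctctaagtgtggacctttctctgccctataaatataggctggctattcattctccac
The windows lie at chr12:35992675-35992924 (plus strand) for Agr2, chr7:141690090-141690339 (plus) for Muc2, chr11:83593088-83593337 (minus) for Ccl6, chr10:117292869-117293118 (minus) for Lyz1, chr8:21509008-21509257 (plus) for Defa20 and chr8:21162027-21162276 (plus) for Defa22. The window of Muc2 held 4 matches, that of Ccl6 3, that of Agr2 2 and that of Lyz1 1. The windows of Defa20 and Defa22 held 0 matches and were 98% identical to each other, with 5 differing bases. GGAT or ATCC is present in 74.1% of 32851 promoter windows of this length, so a match is common. The longer string GGATGT or ACATCC, which includes the shorter one, is present in 9.46% of windows, with 1 match each in Muc2 and Ccl6. These are letters in a window and no measure of binding.

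The targeted gene was read first. The log2 ratio of KO over wild type for Spdef was −1.68 and −2.86 in adult pairs 1 and 2, −1.70 in fetal small intestine 1 and 2, and −1.63 in the pair labelled fetal colon 1. It was negative on all 10 arrays, from −2.90 to −1.20. The adult mean fell by 2.27 (limma, adjusted p = 0.0148, n = 2), and without adult pair 2 its adjusted p was 0.0735. The fetal mean was −1.67 (limma, adjusted p = 0.149, n = 2). The difference between stages was −0.60 ± 0.38 (limma standard error, SE), and it was 0.29 with the groups as labelled. The probe, at chr17:27442294-27442353 in build mm8, was above background in the KO pools on every array, and whether it lies in the deleted part is not known here.

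Across 17096 genes, the KO effect differed between stages for 3 genes at an adjusted p under 0.05 in limma, which is 0.0175% of the genes tested. Of these 1 was higher in adult (0.00585%) and 2 were lower (0.0117%). At an unadjusted p under 0.05 the count was 1024, or 5.99%, with 3.38% higher and 2.61% lower in adult. The effect itself was called for 76 genes in adult small intestine, 30 higher and 46 lower in KO, and for 18 genes in fetal pools, 4 higher and 14 lower. The adult count was 0.445% and the fetal count 0.105% of the genes tested, with 0.175% higher and 0.269% lower in adult and 0.0234% higher and 0.0819% lower in fetal pools. At an unadjusted p under 0.05, 5.08% of genes were higher and 6.84% lower in adult (11.9% in all), and 1.26% were higher and 2.37% lower in fetal pools (3.63% in all). The middle of the distribution was narrow, with a median difference of 0.00 and a range from −0.22 at the 5th percentile to 0.25 at the 95th percentile. Between 51.3% and 66.6% of the probes were above background in a channel of these arrays.

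The adult and fetal contrasts share no pools. Both come from 1 fit and use the same spread for a gene, so their calls are not independent. There were 7 lower genes called in both. They were Agr2, Ccl6, Ccl9, Galnt12, Hgfac, Nupr1 and Tpsg1, which make up 15.2% of the adult lower calls and 50% of the fetal ones. Of the higher genes, 2 were called in both, Glo1 and Pyy, of which Glo1 lost its fetal call without the pair labelled fetal colon 1 (limma, adjusted p = 0.0636) and Pyy its adult call without either adult pair (0.0593 and 0.0912). The plot of the adult against the fetal effect shows most goblet genes spread along and above the line of equal effect, at negative fetal values. Many Paneth genes lie in a column at small fetal effects, but Defa21, Mptx1, Nupr1, Mmp7 and Reg3b lie away from it.

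**Figure D1:**
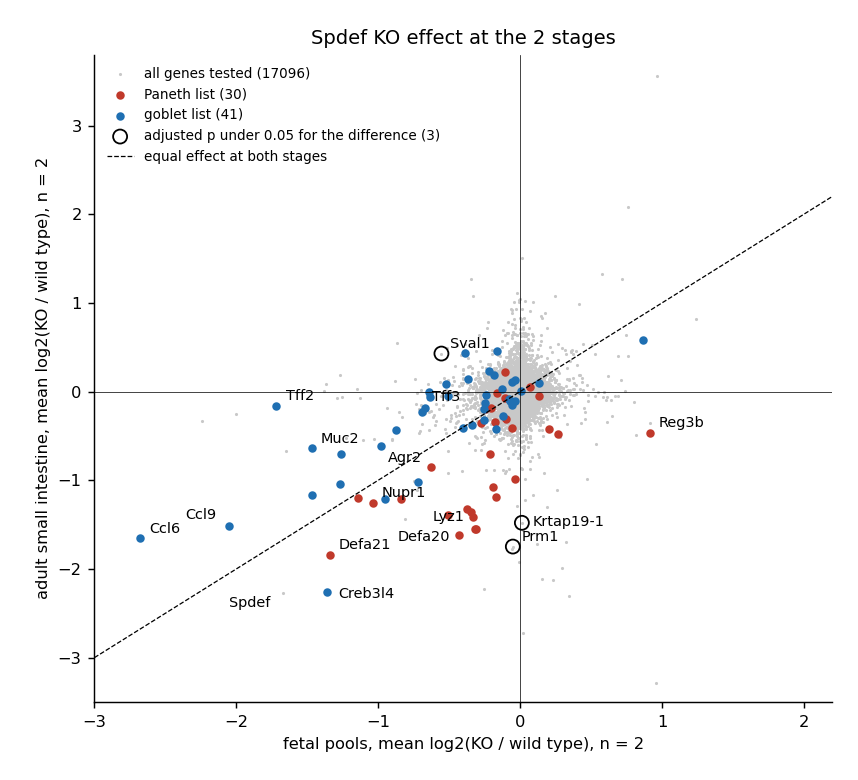
Mean log2 ratio of KO over wild type in fetal pools (x axis, n = 2 replicates) against adult small intestine (y axis, n = 2) for 17096 genes. Red points are 30 Paneth-list genes, blue points 41 goblet-list genes, circles the 3 genes past the threshold for the difference, and the dashed line marks an equal effect. Lyz1 lies at −0.31 fetal and −1.54 adult, Ccl6 at −2.68 fetal and −1.65 adult.

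The median ratio of Paneth genes was lower in adult pools than in fetal pools. Of 41 genes on the Paneth list, 30 were tested, and 28 of those were above background in wild type pools of both stages on every array. In adult small intestine 7 of the 30 fell and 0 rose, where 0.269% of all genes fell. In fetal pools 1 fell, Nupr1, where 0.0819% of all genes fell. At an unadjusted p under 0.05, 16 were lower and 1 higher in adult, where 6.84% and 5.08% of all genes were. In fetal pools 7 were lower and 1 higher, where 2.37% and 1.26% of all genes were. The median difference between stages over the list was −0.43, against 0.00 over all genes. None of the 30 passed the threshold for the difference in limma. At an unadjusted p under 0.05, 11 were lower in adult and 1 higher, where 2.61% and 3.38% of all genes were. Both adult replicates lay below both fetal replicates for 14 of the 30 genes and above them for 1, where 17.9% of all genes lay below and 18.3% above. Over the 28 measured at both stages these counts were 12 and 1, where 18.2% of all such genes lay below and 18.6% above. List members named here beyond the panel of markers were chosen with their values known.

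Lyz1 encodes the lysozyme of Paneth cells. Its log2 ratio was −1.26 and −1.83 in adult pairs 1 and 2, −0.50 in fetal small intestine 1 and 2, and −0.12 in the pair labelled fetal colon 1. The stages did not overlap. The adult mean fell by 1.54, a 2.92-fold decrease (limma, adjusted p = 0.00313), and the fetal mean was −0.31 (adjusted p = 1). The difference was −1.23 ± 0.19 (95% interval −1.66 to −0.81, limma, adjusted p = 0.138), and −1.04 without the pair labelled fetal colon 1. Without adult pair 1 the difference was −1.52 with an adjusted p of 0.0265. In wild type pools Lyz1 was 63.1-fold higher in adult, at 16.58 against 10.61 log2 intensity (limma, adjusted p = 2.41e-06). Its probe was above background in every fetal array, at a lower level than that of the probe of its near copy Lyz2 (12.93), and whether it reads Lyz2 there was not tested. Its probe lies at chr10:116692308-116692367 in mm8.

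The alpha-defensins are the antimicrobial peptides stored in Paneth granules. All 13 tested were higher in wild type adult pools, with a median wild type difference of 5.21 log2 units, where 10.1% of all genes were higher in adult. The median KO effect over the 13 was −1.06 and −1.64 in the adult pairs, −0.51 in fetal small intestine 1 and 2 and −0.06 in the pair labelled fetal colon 1. In adult pools 5 fell, namely Defa1, Defa5, Defa20, Defa22 and Defa39, where 0.269% of all genes fell. In fetal pools 0 fell in limma, with 3 lower at an unadjusted p under 0.05, where 2.37% of all genes were lower. These paralogs are near-identical in sequence, and a probe may read several of them, so the 13 are not separate observations. Without adult pair 2, only Defa22 and Lyz1 of the Paneth list kept an adult call, 2 against 7. Without the pair labelled fetal colon 1, Defa21 was called lower in the remaining fetal replicate.

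Defa22 had the smallest standard error of the 13. Its log2 ratio was −1.08 and −1.30 in the adult pairs and −0.31 and −0.02 in the fetal replicates, without overlap. The difference was −1.02 ± 0.12 (limma, adjusted p = 0.069), with an adult fall of 1.19, or 2.28-fold (adjusted p = 0.0012), and −0.88 was the difference without the pair labelled fetal colon 1. Wild type Defa22 was 51.4-fold higher in adult. Defa20 ran at −1.43 and −1.81 in adult and −0.62 and −0.25 in fetal replicates, for a difference of −1.19 ± 0.25 (limma, adjusted p = 0.340), or −1.0 without that pair. Its wild type level was 18.32 in adult and 13.86 in fetal pools, and no spot of it was flagged as saturated. Defa21 stood apart within the family, at −1.76 and −1.91 in adult, −2.47 in fetal small intestine 1 and 2 and −0.21 in the pair labelled fetal colon 1, so its fetal replicates spanned the adult values. Defcr-rs10 and Defcr-rs2, whose wild type levels rose by 8.62 and 8.87 log2 units from fetal to adult, had adult ratios of only −0.18 and −0.36.

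Some Paneth-list genes had negative ratios at both stages. Nupr1, a stress-responsive nuclear protein, was −1.04 and −1.46 in adult and −1.02 and −1.05 in fetal replicates. It fell by 1.25 in adult (limma, adjusted p = 0.00602, and 0.0561 without adult pair 2) and by 1.04 in fetal pools (adjusted p = 0.0325), with a difference of −0.21 (interval −0.61 to 0.18). Its fetal call was lost with either fetal replicate left out, and also without adult colon 1 or 2 or either fetal pair with a colon profile, which enter the fit through the shared spread. Mmp7, the protease that activates pro-alpha-defensins, was −0.76 and −0.94 in adult and −0.78 and −0.48 in fetal replicates, and passed at neither stage. The mucosal pentraxin Mptx1 was −0.78 and −1.62 in adult and −1.25 and −1.04 in fetal replicates, and its wild type level was 2.97-fold lower in adult. The C-type lectins of the Reg3 family had adult ratios between −0.82 and −0.34, while Reg3b was 0.55 and 1.28 in fetal replicates, for a difference of −1.38 ± 0.36 (limma, adjusted p = 0.496). Ang4, a microbicidal ribonuclease, was 0.70 and −1.32 in the adult pairs, −0.93 in fetal small intestine 1 and 2 and 0.74 in the pair labelled fetal colon 1, so neither stage had a common sign.

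Lysozyme 2 (Lyz2), made by macrophages, was −0.80 and −0.99 in adult and −0.21 and 0.02 in fetal replicates. It fell by 0.90 in adult (limma, adjusted p = 0.00313, and 0.0526 without adult pair 2). The difference was −0.80 ± 0.11 (limma, adjusted p = 0.110), and −0.69 without the pair labelled fetal colon 1. A second, dimmer Lyz2 probe gave a difference of −0.04. Of 19 macrophage and mast cell markers tested, Lyz2 was the 1 adult call, and the list's median effect was 0.03 in adult and 0.00 in fetal pools. The summed level of these markers, Lyz2 included, was 16.07 and 15.48 log2 intensity in wild type and 15.45 and 14.79 in KO adult pools. It lay between 14.65 and 14.79 in the fetal pools of both genotypes. Lyz2 alone stood at 15.8 and 15.1 in wild type and at 15.0 and 14.1 in KO adult pools. The adult sum is therefore mostly Lyz2, and a fall of the other markers cannot be read from it. Whether the Lyz2 probe reads Lyz1 was not tested.

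**Figure D2:**
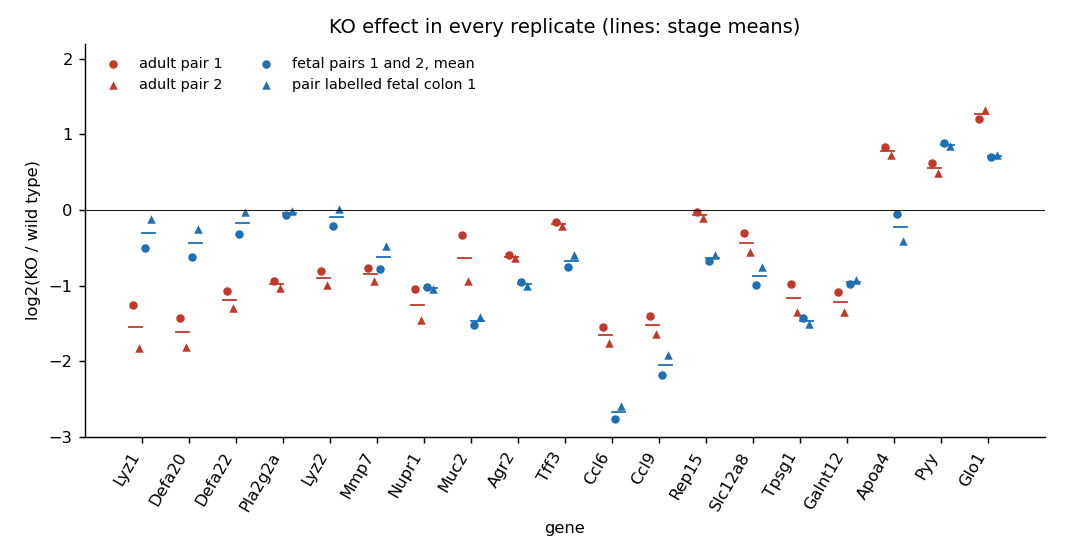
Log2 ratio of KO over wild type (y axis) in each of 4 replicates for 19 genes (x axis). Red marks are adult pairs, blue marks fetal replicates, triangles the second adult pair and the pair labelled fetal colon 1, and lines the stage means. Lyz1, the defensins, Pla2g2a and Lyz2 have lower adult than fetal marks, and Muc2, Agr2, Tff3, Ccl6, Ccl9, Rep15 and Slc12a8 have lower fetal than adult marks.

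The median stage difference of goblet genes had the opposite sign. Of 43 genes on the goblet list, 41 were tested and 38 were above background in wild type pools of both stages. In adult small intestine 8 fell and 0 rose, where 0.269% of all genes fell and 0.175% rose. In fetal pools 9 fell and 1 rose, where 0.0819% of all genes fell and 0.0234% rose. At an unadjusted p under 0.05, 15 were lower and 5 higher in adult, where 6.84% and 5.08% of all genes were. In fetal pools 26 of the 41 were lower and 1 higher, where 2.37% and 1.26% of all genes were. The shared falls were Agr2, Ccl6, Ccl9, Galnt12, Hgfac and Tpsg1, with Creb3l4 and Rap1gap among the adult falls and Muc2, Slc12a8 and Rep15 among the fetal ones, and none of these 5 passed the test of the difference. The adult call of Creb3l4 was lost with any of the 4 replicates or either fetal pair with a colon profile left out, and that of Hgfac without adult pair 2. Rap1gap was called in fetal pools without either adult pair (limma, adjusted p = 0.026) and with the replicate number as a block (0.00553). The median difference was 0.20, against 0.00 over all genes. None passed the threshold for the difference in limma. At an unadjusted p under 0.05, 14 were higher in adult and 1 lower, where 3.38% and 2.61% of all genes were. Adult replicates lay above both fetal replicates for 21 of the 41 and below them for 5, where 18.3% of all genes lay above and 17.9% below. Those counts were the same over the 38, where 18.6% of all such genes lay above and 18.2% below. The goblet median stayed above 0 under every alternative run, from 0.13 to 0.37, and was 0.24 without the pair labelled fetal colon 1. Without that pair 7 goblet genes fell in the remaining fetal replicate, without fetal small intestine 1 and 2 the count was 6, and without adult pair 2 the adult count was 5.

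Muc2 encodes the gel-forming mucin of goblet cells. Its log2 ratio was −0.33 and −0.94 in adult pairs 1 and 2, −1.52 in fetal small intestine 1 and 2, and −1.41 in the pair labelled fetal colon 1. Both fetal replicates lay below both adult pairs. The fetal mean fell by 1.47, or 2.76-fold (limma, adjusted p = 0.00757), and the adult mean was −0.64 (adjusted p = 0.126). In adult it was called lower without adult pair 1 (limma, adjusted p = 0.0337) and with the replicate number as a block (0.0376). With either fetal replicate left out the fetal call was lost, at adjusted p values of 0.0765 and 0.105. The difference was 0.83 ± 0.19 (interval 0.39 to 1.27; adjusted p = 0.426), and 0.89 without the pair labelled fetal colon 1. Wild type Muc2 ran the opposite way to its effect, 9.76-fold higher in adult, at 13.75 against 10.46 log2 intensity. The value comes from 1 bright probe, at chr7:141565366-141565425 in mm8. The 3 other Muc2 probes were near background, with differences from −0.09 to −0.02, and the mean of all kept probes gave 0.17.

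Agr2 is a disulfide isomerase of the endoplasmic reticulum needed for mucin folding. Its log2 ratio was −0.59 and −0.64 in adult and −0.95 and −1.01 in fetal replicates, without overlap. It fell 1.53-fold in adult (limma, adjusted p = 0.00313, and 0.0543 without adult pair 2) and 1.97-fold in fetal pools (adjusted p = 0.000368). The difference was 0.36 ± 0.07 (interval 0.19 to 0.53; adjusted p = 0.325), and 0.34 without the pair labelled fetal colon 1. Tff3, the trefoil peptide packed with mucin, was −0.16 and −0.21 in adult and −0.75 and −0.59 in fetal replicates, again without overlap. Its difference was 0.48 ± 0.14 (interval 0.17 to 0.80; limma, adjusted p = 0.548), or 0.57 without that pair, and it passed at neither stage. The wild type levels of Agr2 and Tff3 did not pass a stage test, and the sign of their stage difference changed when arrays were not scaled to each other. Their probes lie at chr12:36514185-36514244 and chr17:30852346-30852405 in mm8.

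The chemokines Ccl6 and Ccl9 had the lowest fetal ratios on the goblet list. Ccl6 was −1.54 and −1.76 in adult and −2.77 and −2.59 in fetal replicates. It fell 3.14-fold in adult (limma, adjusted p = 0.000539) and 6.4-fold in fetal pools (adjusted p = 5.81e-05), for a difference of 1.03 ± 0.14 (interval 0.71 to 1.35; adjusted p = 0.110). With the groups as labelled that difference was 0.43, and without the pair labelled fetal colon 1 it was 1.12. Ccl9 was −1.40 and −1.64 in adult and −2.19 and −1.92 in fetal replicates, a difference of 0.54 ± 0.15 (limma, adjusted p = 0.529), or 0.67 without that pair. Both chemokines are also made by myeloid cells, and the part of such cells in these values was not tested.

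Rep15, Slc12a8, Bcas1 and Klf4 had lower fetal than adult ratios in every replicate. Rep15, an effector of the vesicle GTPase Rab15, was −0.03 and −0.10 in adult and −0.68 and −0.59 in fetal replicates, with a fetal fall (limma, adjusted p = 0.0406) that was lost with any of the 4 replicates or any adult colon pair left out. Slc12a8, a transporter of the cation-chloride family, was −0.31 and −0.55 in adult and −1.0 and −0.76 in fetal replicates, with a fetal fall (limma, adjusted p = 0.00757) that was lost without fetal small intestine 1 and 2. Bcas1, a gene first named in breast cancer, was 0.10 and −0.11 in adult and −0.73 and −0.55 in fetal replicates. Klf4, a zinc-finger factor of goblet maturation, was 0.28 and 0.01 in adult and −0.27 and −0.46 in fetal replicates. Its difference was 0.51 ± 0.13 (limma, adjusted p = 0.499).

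Other goblet genes had large negative ratios at both stages. Galnt12, which starts O-glycan chains on mucins, was −1.08 and −1.35 in adult and −0.98 and −0.93 in fetal replicates. The membrane tryptase Tpsg1 was −0.98 and −1.35 in adult and −1.43 and −1.51 in fetal replicates. Creb3l4, a membrane-bound factor of the secretory pathway, was −1.85 and −2.67 in adult and −1.38 and −1.34 in fetal replicates, for a difference of −0.90 ± 0.43 with an interval from −1.89 to 0.08. Zg16, a lectin of the mucus layer, was 6.59-fold higher in wild type adult pools and had ratios from −0.37 to 0.02 in the 4 replicates. Best2, an anion channel, was the 1 goblet-list gene called higher in fetal KO, by 0.87 (limma, adjusted p = 0.0406), with 0.58 in adult, a call lost with any of the 4 replicates or any adult colon pair left out.

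**Figure D3:**
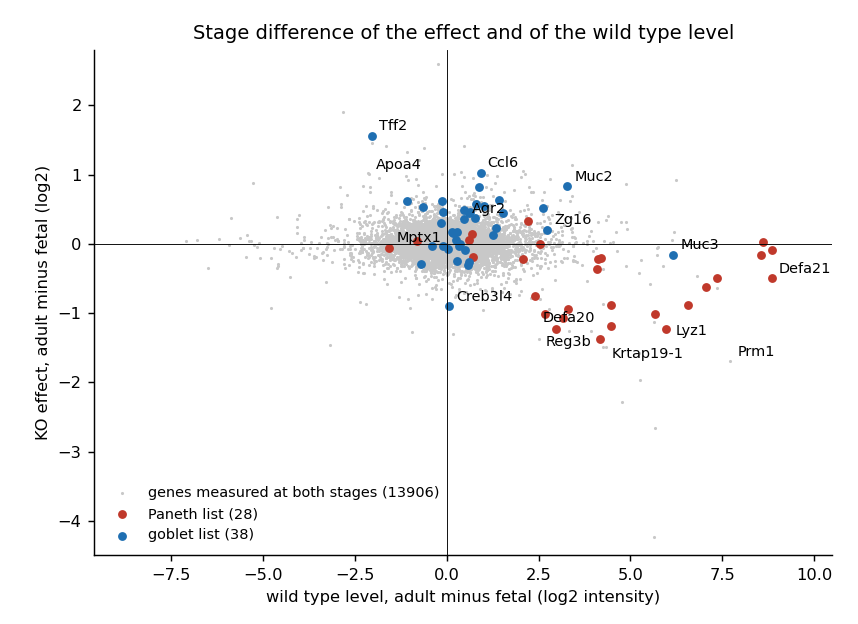
Wild type level difference, adult minus fetal (x axis, log2 intensity), against the difference of the KO effect, adult minus fetal (y axis, log2), for 13906 genes above background at both stages. Red points are the 28 Paneth-list genes measured at both stages, and Lyz1 lies at 5.98 and −1.23. Of all 30 Paneth-list genes tested, plotted or not, 23 had higher wild type levels in adult. Most blue goblet-list points lie nearer 0 on the x axis, and Muc2 lies at 3.29 and 0.83.

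Wild type levels show which genes were measured at both stages. Of the 17096 genes, 13906 (81.3%) were above background in wild type pools at both stages on every array, 277 in adult only, 178 in fetal only, 2502 on some arrays and 233 at neither stage. The adult calls lay in the first class for 72 of 76 genes, and all 18 fetal calls did. Among 43 genes called lower in adult and measured at both stages, 28 had negative ratios in both fetal replicates, where 28.3% of all genes measured at both stages did. Among 29 called higher in adult and measured at both stages, 10 had positive ratios in both, against 17.8% of all such genes, and their median fetal effect was 0.00. Of these 43, 23 had a higher wild type level in adult, and their median effect was −0.90 in adult and −0.09 in fetal pools. For 20 of the 23, the fetal effect was less than 50% of the adult one. The 19 whose wild type level did not pass a stage test had medians of −0.61 in adult and −0.27 in fetal pools, and for 10 of them the fetal effect was less than 50% of the adult one. The adult medians of these genes follow from their selection as adult calls, which also favours a smaller fetal effect. The counts under 50% are therefore a description only.

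The genes above background at only 1 stage gave no call for the difference. Pla2g2a, the secretory phospholipase A2 of Paneth granules, was −0.94 and −1.03 in adult and −0.07 and −0.01 in fetal replicates, where its wild type level was not well above background. Its wild type level was at least 11.4-fold higher in adult, so its fetal ratio says nothing of a response. The interferon-induced chemokine Cxcl9 fell in adult, at −0.49 and −0.30 (limma, adjusted p = 0.0327, a call lost with any of the 4 replicates left out), and was not well above background in fetal pools, with a wild type level at least 4.97-fold higher in adult. In the other direction, Cstdc6, of the cystatin family, was −0.68 and −0.62 in fetal replicates, and its wild type level was at least 23.4-fold higher in fetal pools. Each of these bounds sets the brighter stage's mean against the lowest signal above background, or the dim gene's own mean where that was higher.

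The 3 genes past the threshold for the difference were on none of the secretory cell lists. Krtap19-1, a keratin-associated protein known from hair, was −1.41 and −1.55 in adult and −0.01 and 0.04 in fetal replicates. It fell 2.79-fold in adult, and its difference was −1.49 ± 0.08 (limma, adjusted p = 0.000954), or −1.46 without the pair labelled fetal colon 1 (0.0139), with a wild type level 19.1-fold higher in adult. Prm1, a protamine of sperm chromatin, was −1.57 and −1.93 in adult and −0.11 and 0.01 in fetal replicates, with a difference of −1.70 ± 0.12 (limma, adjusted p = 0.00506), or −1.64 without that pair (0.0415). Its wild type level was 211-fold higher in adult, at 15.44 against 7.72 log2 intensity. That fetal level was close to the 7.07 of Pla2g2a, which was not well above background. A fetal fall of Prm1 could therefore be only small, and its difference is not separated from its low fetal expression. A second Prm1 probe near background had ratios from −0.05 to 0.08 in the 4 replicates, and the mean of all kept probes gave −0.84 (adjusted p = 0.101). The probes lie at chr16:88757998-88758057 for Krtap19-1 and chr16:10710082-10710233 for Prm1 in mm8. Whether these 2 probes read other transcripts was not tested.

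Sval1 changed in opposite directions. It was 0.43 in each adult pair, −0.52 in fetal small intestine 1 and 2 and −0.59 in the pair labelled fetal colon 1. It rose in adult (limma, adjusted p = 0.0368) and fell in fetal pools (adjusted p = 0.0322), for a difference of 0.98 ± 0.09 (adjusted p = 0.0236). The wild type level was 8.71 in adult and 9.82 in fetal pools, and its probe lies at chr6:41885551-41885610 in mm8. With any of the 4 replicates left out, the adjusted p of the difference was over the threshold, from 0.0502 to 0.113, and the calls at each stage were lost too. Markers of stomach and duodenal glands, a list added after the data were seen, had 11 members tested and 2 fetal falls, Sval1 and Gkn3. Gkn3, a gastrokine, was 0.13 and 0.04 in adult and −0.93 and −1.81 in fetal replicates. Of the 11, 5 were lower in fetal pools and 4 had a higher difference at an unadjusted p under 0.05. Over all genes these shares were 2.37% and 3.38%. Of the 11, 7 were measured at both stages. The list's markers Muc5ac and Sox2 were not above background on every array. The part of gland content in the Sval1 and Gkn3 values was not tested.

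The factors above and beside Spdef in the secretory lineage gave no call for the stage difference. Of 23 secretory fate and Notch genes tested, 1 fell in adult, Spdef itself, and 0 changed in fetal pools in limma. At an unadjusted p under 0.05, 4 were lower and 2 higher in adult, where 6.84% and 5.08% of all genes were. In fetal pools 6 were lower and 2 higher, where 2.37% and 1.26% of all genes were. The list's median difference was 0.07. The stage difference was −0.09 (interval −0.49 to 0.32) for Atoh1, 0.10 (−0.26 to 0.46) for Gfi1, −0.04 (−0.40 to 0.32) for Foxa3, −0.05 (−0.34 to 0.25) for the Notch ligand Dll1 and 0.06 (−0.33 to 0.44) for Sox9. These intervals leave room for differences of up to −0.49. Wild type Atoh1 was low, at 7.93 log2 intensity in adult and 7.43 in fetal pools, so its ratios had little room to fall. Foxa3 had mean ratios of −0.37 in adult and −0.34 in fetal pools, and Dll1 −0.26 and −0.21. Both were lower at each stage at an unadjusted p under 0.05 in limma. Genes of protein folding in the endoplasmic reticulum, 59 tested, had 1 adult fall, Creb3l4, and a median difference of −0.05. At an unadjusted p under 0.05, 11 were lower and 0 higher in adult, and 3 were lower and 1 higher in fetal pools. The stage difference was lower for 7 and higher for 0 at that threshold, against 2.61% and 3.38% of all genes. Mucin glycosylation, 46 genes, had 1 fall at each stage, Galnt12, and a median difference of 0.01. Of the 46, 6 were lower and 2 higher in adult at that threshold, and 7 were lower and 0 higher in fetal pools.

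Hormone genes and factors of enteroendocrine cells, 28 tested, had a median effect of 0.08 in adult and 0.15 in fetal pools, and 0.17 at each stage over the 25 measured at both. Adult replicates lay below both fetal replicates for 11 of the 28 and above them for 4, where 17.9% of all genes lay below and 18.3% above. Of the 28, 8 were higher and 0 lower in adult at an unadjusted p under 0.05, where 5.08% and 6.84% of all genes were. In fetal pools 9 were higher and 0 lower, where 1.26% and 2.37% of all genes were. In limma, Pyy, the gut peptide YY, was the 1 call at each stage. Pyy was 0.62 and 0.49 in adult and 0.88 and 0.84 in fetal replicates, and rose by 0.55 in adult (limma, adjusted p = 0.0108) and by 0.86 in fetal pools (adjusted p = 0.00213), for a difference of −0.31 ± 0.09 (adjusted p = 0.569), or −0.33 without the pair labelled fetal colon 1. Ghrelin (Ghrl) was 0.71 and 0.93 in adult and 1.32 and 1.15 in fetal replicates and passed at neither stage. Of 36 enterocyte genes, 1 was called, in adult: Apoa4, an apolipoprotein of chylomicrons, was 0.84 and 0.72 in adult and −0.05 and −0.41 in fetal replicates. Its difference was 1.01 ± 0.12 (limma, adjusted p = 0.069), or 0.83 without that pair, and its adult call was lost without either adult pair (0.0634 and 0.0731).

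**Figure D4:**
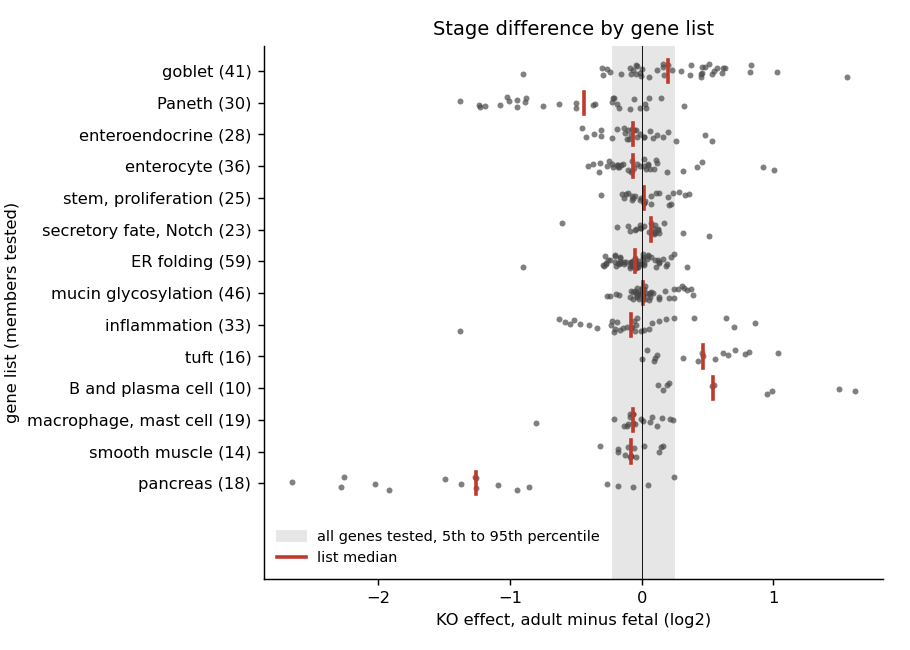
Difference of the KO effect, adult minus fetal (x axis, log2), for each tested gene of 14 lists (y axis, number tested in brackets). Points are genes, red bars list medians, and the grey band the 5th to 95th percentile of all genes, −0.22 to 0.25. The Paneth median is −0.43, the goblet median 0.20, the tuft median 0.46 and the pancreas median −1.26.

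Markers of other cell types moved beside these results, mostly in 1 adult pair. The summed wild type level of 18 pancreas genes was 17.21 and 15.74 log2 intensity in the adult pairs and 12.94 and 12.20 in the fetal replicates. In KO pools it was 18.20, 12.25, 13.05 and 12.19, so the list's median ratio was 0.90 in adult pair 1 and −3.12 in adult pair 2. The Paneth list holds 2 genes of that kind, Clps and Pnliprp2, with ratios of 0.57 and 0.90 in pair 1 and −1.53 and −0.79 in pair 2, neither past the threshold. Tuft cell markers had a median ratio of 0.73 and 0.12 in the adult pairs and −0.01 and 0.00 in the fetal replicates. Of 16 genes, 12 were higher in adult without overlap, where 18.3% of all genes were. Of the 16, 12 were measured at both stages, and 8 of those lay higher, where 18.6% of all such genes did. A gene at background in fetal pools has a ratio near 0 there whatever its response. Their defining genes Dclk1 and Trpm5 were 0.74 and 0.87 in adult pair 1 and 0.11 and 0.20 in pair 2. Markers of B and plasma cells had medians of 0.62 and 0.17 in adult and −0.01 in both fetal replicates, and 1 adult call, Ighg, named for immunoglobulin gamma chains. Only 3 of the 10 B and plasma cell genes were measured at both stages, so the order of the stages is not read from this list. The part of these cells in the stage differences was not tested, and with whole-organ RNA, fewer cells of a type and less RNA per cell cannot be told apart.

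The 2 fetal replicates also differed from each other in stroma. Smooth muscle markers had a median ratio of −0.27 in fetal small intestine 1 and 2 and 0.27 in the pair labelled fetal colon 1, and fibroblast markers −0.35 and 0.10. Paneth genes were ordered the same way, at −0.48 and −0.05. The Paneth median difference was −0.84 without fetal small intestine 1 and 2, −0.28 without the pair labelled fetal colon 1, −0.62 without adult pair 1 and −0.15 without adult pair 2. It was below 0 in all of these, but its size depended on each replicate. Of the 76 adult calls, 14 (18.4%) lay on chromosome 17, which holds Spdef and 5.06% of the genes tested. The goblet genes Tff3 (chr17:30852346-30852405) and Tpsg1 (chr17:25101854-25101913) lie on it too, near Spdef (chr17:27442294-27442353). Whether their ratios depend on that position was not tested. Glo1 on that chromosome, a detoxifying enzyme, was 1.20 and 1.33 in adult and 0.70 and 0.73 in fetal replicates, for a difference of 0.55 ± 0.08 (limma, adjusted p = 0.138), or 0.56 without the pair labelled fetal colon 1.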

How the data were processed

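Total RNA of whole organs from Spdef KO and wild type mice was amplified and labelled from 500 ng, per the labels' protocols, and hybridised to 2-colour Agilent arrays. Per the submitters' processing notes, spots were extracted with Agilent Feature Extraction 9.5.3. The deposited mean, background and processed signals are intensities on a linear scale, per the file headers. Each scanner file's log10 ratio of red over green, as deposited, was not the base of the values here. The deposited series table was read as log2 ratios of KO over wild type; its medians are 0 and 48.6% to 72.7% of the values of an array are exactly 0, and whether the authors centred it is not given in the sources used here. The other deposited columns used are flags for spots above background, saturated or outlying.

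Mean signals were corrected with normexp (offset 50) and loess within arrays, with limma 3.58.1 in R 4.3.3. Control spots had weight 0 and outlier flags were left out. Dye swaps were turned to KO over wild type and averaged per pair of pools. Of 41174 probes, 25990 were kept (above background on all arrays of a set in 1 genotype); the brightest probe stood for a gene, and genes on X and Y were left out, which gave 17096. One limma fit held all 9 replicates in 4 sets, with 5 residual degrees of freedom and Benjamini-Hochberg adjustment, threshold 0.05. With 2 replicates against 2, an exact permutation test of a single gene cannot go below 0.333, so the pooled fit was used. Wild type levels were the wild type channel after loess and quantile scaling of average intensity. The precision is limited by the number of arrays and of replicates. The fit was tested on simulated data.

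Names came from RefSeq accessions (23475 probes), current (6684) or older symbols (2886), or the file (8129). Promoters came from the RefSeq table of build GRCm38.p6; Tff3 was not matched. The genes named are a panel, up to 8 per direction past the threshold or the 5 with smallest p, and list members past it; the members and lists were chosen with earlier results of these data known. The correlation of same-numbered deviations between adult and fetal small intestine was 0.00134. Fetal small intestine 1 and 2 were counted as 1 replicate, with ratios correlated at 0.919. Their deviations therefore cannot show whether replicate numbers pair the pools. Alternatives changed the background, normalisation, filter, probe rule, slide or replicate block, counting of fetal pairs, samples, labels, chromosomes, prior, unit, source table and each replicate.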

Additional observations from a re-analysis of the deposited data

Results flagged for a closer look

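For 3 genes the log2 ratio of KO over wild type differed between adult and fetal small intestine. The interaction of stage and genotype was tested in limma. Krtap19-1 differed by −1.49, with both adult pairs between −1.55 and −1.41 and both fetal replicates between −0.01 and 0.04. It passed under 21 of 24 alternatives. Prm1 differed by −1.70, with adult ratios of −1.57 and −1.93 and fetal ratios of −0.11 and 0.01. It passed under 20 of 24 alternatives, and its second probe gave a difference of 0.02. Its fetal wild type level, 7.72 log2 intensity, was low, so its fetal ratio had little room to fall. Whether the probes of Krtap19-1 and Prm1 read other transcripts was not tested. Sval1 differed by 0.98, with 0.43 in both adult pairs and −0.52 and −0.59 in the fetal replicates, and passed under 11 of 24 alternatives.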

How the results depend on the processing

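The base counts were 3 genes for the stage difference, 76 for the adult effect and 18 for the fetal effect, in that order below. Processed signals gave 128 adult calls. Without background subtraction there were 122 adult and 31 fetal calls. Median centring gave 1, 35 and 51. Counting fetal small intestine 1 and 2 separately gave 38, 150 and 77. Groups as labelled gave 37 stage and 69 fetal calls. The deposited series table gave 31, 132 and 46, and every array as an observation 230, 675 and 293. With only the 4 small-intestine replicates the counts were 0, 0 and 1, with fewer degrees of freedom, and a trended, robust prior gave 0, 11 and 0. At an unadjusted p under 0.05 these limma fits still gave 1041, 2013 and 591 genes with 4 replicates, and 953, 1901 and 534 with that prior. The cause of the other shifts was not tested. Whether replicate numbers pair the pools is not known, and with them as a block the counts were 4, 74 and 42.

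Leaving out 1 replicate at a time gave 2 to 18 stage calls, 33 to 101 adult calls, 10 to 23 fetal calls and 1531 to 1836 wild type stage calls against 3766. The stage count was 18 without adult pair 1, 11 without adult pair 2, 14 without fetal small intestine 1 and 2, and 5 without the pair labelled fetal colon 1; the adult count was 33 without adult pair 2, 48 without either fetal replicate, 44 without either of the fetal pairs with a colon profile and 37 without adult colon 1; the fetal count was 10 without adult colon 1 and 19 without the pair labelled fetal colon 1, and wild type calls were 1678 without adult pair 2. A lone replicate is then assumed to vary like the other sets. Wild type calls numbered 1758 without scaling between arrays, which moved the median of all genes to −0.63 and left 17% of calls higher in adult against 45.9%, and 573 with equal medians. The Paneth median fell from 4.10 to 3.53 log2 units without scaling and the goblet one from 0.46 to −0.17. Over 50 named genes and 1188 values of the stage difference, 40 changed sign, of which 0 were past the threshold; 20 lost and 36 gained a call. Whether slide and stage act together could not be separated, since each of the 4 replicates lay on its own slide.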
